A study of Homo sapiens with 171 samples.

Results

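Enzymes that use or restore glutathione were followed here: the peroxidases GPX2, GPX3, GPX4 and GPX8, the transferases GSTP1, GSTO1, GSTK1 and MGST1, and glutathione reductase, GSR. These 9 were chosen by symbol out of the 18417 genes measured, with earlier results of these data known. Each had 1 probe set annotated to it alone. The arrays held RNA of 46 established ovarian cancer cell lines, each grown with cisplatin for 48 h at the GI50 (the concentration set by its growth-inhibitory effect), or left untreated. The dose in each line is not given in the sources used here, so lines may differ in dose as well as in identity. After repeat arrays of a culture were averaged, 82 cisplatin-treated and 85 untreated cultures remained, in 5 labelled batches. The 18 lines of batches 1 to 3 had 3 cultures in each arm, except for 2 treated cultures of HeyA8, and the lines of batches 4 and 5 had 1 culture in each arm. The labels do not say whether numbered cultures were grown separately, so p-values measure only the spread between these cultures. Some lines are known to share an origin: Hey, HeyA8 and HeyC2, A2780 and its cisplatin-resistant derivative A2780cisR, and A2008 and its resistant derivative C13. DOV13, DOV13A and DOV13B share a name.

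Glutathione is the most abundant small thiol of most cells. Peroxidases spend it to reduce hydrogen peroxide and lipid hydroperoxides, transferases couple it to electrophiles, and GSR regenerates it from its oxidised form with electrons from NADPH. Glutathione also binds platinum, and conjugates leave the cell through export pumps, which is why the pathway has long been studied in cisplatin-treated ovarian cancer cells. Genes of this pathway are among the textbook targets of the transcription factor NRF2, which binds the antioxidant response element.

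All values are log2 intensities, so a difference of 1 is 2-fold in signal, and the level of one gene cannot be set against that of another. The batches were on different scales: the upper quartile of an array ran from 7.82 to 8.08 in batches 1 to 3 and from 5.80 to 6.59 in batches 4 and 5. PA-1, present untreated in 2 batches, had GPX4 at 11.73 in batch 1 and at 7.29 in batch 5. Lines were therefore compared within a batch and cisplatin with its own untreated arm. Epithelial markers were mixed over the untreated lines of batches 1 to 3. KRT8 and KRT18 were above the median gene in all of them (at least 6.79 and 8.74), whereas EPCAM ran from 2.92 to 12.1, and in batch 1 the medians of EPCAM, KRT19 and CDH1 (4.93, 5.88 and 4.88) were below the median gene at 6.60. VIM, a mesenchymal marker, had a median of 11.96 in batch 1, and KRT18 reached down to 4.09 in batch 5. Of the leukocyte markers 1 of 5 rose with cisplatin and of the epithelial ones 1 of 9 fell. Over the 46 lines, 4.98% of all genes rose and 4.72% fell, at a limma adjusted p under 0.05. The part of these markers in the results was not tested. A total of 3 cultures deviated most from their own group towards another line. Treated culture 1 of OVCAR-10 leaned to DOV13B (r = 0.784 across genes). Treated culture 3 of OVCA420 leaned to OVCA429 (r = 0.671), and untreated culture 1 of A2008 to FU-OV-1 (r = 0.607). The median was 0.0324 over the 107 cultures of batches 1 to 3. Treated culture 1 of A2008 came next, towards DOV13 (r = 0.403), and the fifth culture had 0.223. That A2008 culture was not among the 3 left out as leaning. Among lines with single cultures, the treated and untreated arrays of Hey, OAW28 and OV56 were least alike (r = 0.246, 0.467 and 0.475 after subtraction of the batch mean). The calls on cisplatin and the correlations between members that these arrays touch are given with and without them. This was not done for calls that touch treated culture 1 of A2008. In such bulk cultures, fewer cells of a kind and less RNA per cell cannot be told apart.

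Untreated lines differed in all 9 enzymes, as they did in most genes. In the fit to the 107 cultures of batches 1 to 3, the untreated level differed between lines of a batch for 9 of 9 genes by the limma F test, near the share of all genes, 86.8%. Pair by pair, 313 of 414 comparisons passed (75.6%, against 48.0% for all genes). Brighter genes passed more often. With only genes at or above the median level, 67.8% of all comparisons passed, beside 294 for the 8 members left, with 46 pairs each. GSTP1 separated 41 of its 46 pairs, GSTK1 40 and GSR 38, whereas GPX2 separated 25. The spread over the 46 lines, as an SD after subtraction of the batch mean, was above that of 98.8% of genes for GPX3, 98.2% for MGST1, 98.2% for GPX2 and 95.8% for GPX8. It was above 75.2% of genes for GPX4, the lowest of the 9.

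GPX2, a selenoenzyme best known from the gut epithelium, was near the bottom of the scale in most lines and high in a few. In OVCA420 the 3 untreated cultures had GPX2 at 12.06, 12.15 and 12.18, and the other lines of batch 1 averaged 4.38 to 4.78. OVCA420 was 7.35 above the next line (limma, adjusted p = 4.56e-50), and the order among the other 6 lines of that batch held no neighbouring pair past the threshold. In batch 3, C13 had GPX2 at 10.97, 11.06 and 11.06, which was 5.86 above IGROV-1 (limma, adjusted p = 1.76e-43). In batch 2, OV90 averaged 9.70 ± 0.18 and A2008 9.12 ± 0.14 (SD, n = 3), against at most 4.93 in the other 4 lines. The A2008 culture that leans to FU-OV-1 had 8.96 and the others 9.22 and 9.18. The related lines A2008 and C13, in separate batches, were both high for their batch. TAYA was highest in batch 4 at 7.41, against a batch median of 4.15, and RMG-II in batch 5 at 5.44, against 4.00. The lowest lines were A2780, OVCA433, OVCAR-10, A2780cisR and OVCA432, at 4.38, 4.32, 4.32, 3.11 and 3.25 in batches 1 to 5.

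GPX3, the secreted peroxidase of plasma, had other high lines. FU-OV-1 had GPX3 at 12.32, 12.31 and 12.30, which was 4.51 above CH1, the next line of batch 2 (limma, adjusted p = 2.14e-16). OVCAR-8 had 9.85, 9.81 and 9.31, which was 2.80 above C13 in batch 3 (limma, adjusted p = 8.18e-09). In batch 5, RMG-I at 10.16 and RMG-II at 9.94 stood above a median of 6.55. HeyC2 led batch 1 at 8.98 and TAYA batch 4 at 8.29. The lowest lines were OVCA420, DOV13, DOV13B, Caov-2 and SKOV-3, at 5.16, 5.47, 5.34, 3.63 and 3.89 in batches 1 to 5. Between them, 10 of 15 neighbouring pairs in the order did not differ past the threshold.

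GPX4 reduces phospholipid hydroperoxides inside membranes and holds back ferroptosis. GPX4 had the lowest SD over all lines among the peroxidases, after subtraction of the batch mean (0.574, with GPX8 next at 1.36). Its highest line exceeded its lowest by 2.10-fold in batch 1 (PA-1 at 11.73, OVCA420 at 10.66), by 1.95-fold in batch 2 (FU-OV-1 at 11.82, OVCA433 at 10.86) and by 1.87-fold in batch 3 (OVCAR-10 at 11.88, DOV13B at 10.98). In the single cultures, SKOV-4 at 9.74 and A2780cisR at 7.15 bounded batch 4, and SKOV-3 at 8.68 and DOV13A at 6.04 bounded batch 5. Of 15 neighbouring pairs, 9 did not differ past the threshold.

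GPX8, a peroxidase anchored in the membrane of the endoplasmic reticulum, showed the opposite picture to GPX2: most lines were high and single lines were low. OVCAR-8 had GPX8 at 4.79, 3.68 and 4.11, which was 4.69 below OVCAR-10, the next line of batch 3 (limma, adjusted p = 2.58e-39). OVCA420 had 6.56, 6.17 and 6.24, which was 2.34 below A2780 in batch 1 (limma, adjusted p = 3.99e-21). TAYA at 3.81 and OVCA432 at 4.29 were lowest in batches 4 and 5, whose medians were 8.19 and 8.39. In batch 2, no neighbouring pair between DOV13 at 9.44 and A2008 at 8.49 differed past the threshold. The highest lines elsewhere were HeyA8, DOV13B, JHOS-2 and Hey, at 10.35, 9.90, 9.04 and 9.15 in batches 1, 3, 4 and 5.

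Promoter windows are shown for GPX2, GPX8, GPX3 and GSTP1, in each of which a line stood far from the rest of its batch, so that these levels can be read beside the sequence. Each covers the 250 bases before the RefSeq start on GRCh38.p14, 5′ to 3′ on the gene's strand. Capitals mark a match to the antioxidant response element core TGACNNNGC, searched on both strands. The windows are chr14:64942746-64942995 on the minus strand for GPX2, chr5:55159921-55160170 on the plus strand for GPX8, chr5:151020341-151020590 on the plus strand for GPX3, and chr11:67583562-67583811 on the plus strand for GSTP1.
GPX2: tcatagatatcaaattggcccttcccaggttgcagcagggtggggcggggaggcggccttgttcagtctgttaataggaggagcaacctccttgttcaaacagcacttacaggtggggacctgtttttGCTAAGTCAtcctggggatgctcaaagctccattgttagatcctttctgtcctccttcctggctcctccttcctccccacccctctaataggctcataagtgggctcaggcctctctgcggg
GPX8: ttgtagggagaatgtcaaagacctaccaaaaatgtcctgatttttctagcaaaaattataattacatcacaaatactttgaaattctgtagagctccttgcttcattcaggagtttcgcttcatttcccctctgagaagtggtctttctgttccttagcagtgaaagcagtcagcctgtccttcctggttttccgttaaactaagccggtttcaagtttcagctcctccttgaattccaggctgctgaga
GPX3: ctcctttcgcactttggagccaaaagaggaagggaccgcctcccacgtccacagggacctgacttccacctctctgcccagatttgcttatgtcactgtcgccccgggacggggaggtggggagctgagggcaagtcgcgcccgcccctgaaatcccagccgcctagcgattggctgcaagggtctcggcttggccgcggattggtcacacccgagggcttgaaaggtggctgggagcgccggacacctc
GSTP1: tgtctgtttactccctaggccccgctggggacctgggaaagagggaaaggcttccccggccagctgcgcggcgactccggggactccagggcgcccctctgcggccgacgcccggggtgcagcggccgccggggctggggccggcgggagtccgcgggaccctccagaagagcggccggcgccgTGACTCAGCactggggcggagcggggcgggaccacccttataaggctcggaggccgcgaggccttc
The GPX2 window held 1 match, 122 bases before the start and on the strand opposite to that printed. The GSTP1 window held 1 match, 66 bases before the start, and it overlapped the AP-1 motif TGACTCA. The GPX8 and GPX3 windows held none. Of 35116 RefSeq promoter windows of this length, 10.9% held the core, so a match alone is common. CpG dinucleotides numbered 3 in GPX2, 3 in GPX8, 17 in GPX3 and 28 in GSTP1, against a median of 11 over all windows. Among the other members searched, GSTO1 held 2 matches and GPX4, GSTK1 and MGST1 none.

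GSTP1, the pi-class transferase that is abundant in many tumours, was high in nearly every line. OVCA420 led batch 1 at 12.52 and HeyA8 was lowest at 11.13. FU-OV-1 and OV90 bounded batch 2 at 12.51 and 10.99, and C13 and OVCAR-10 batch 3 at 12.35 and 11.14. TAYA and A2780cisR bounded batch 4 at 10.80 and 8.34. In batch 5, RMG-I had 5.13, far below the next line TOV-21G at 7.59 and below the batch median of 9.02, on 1 untreated array. UWB1.289 led that batch at 10.16. Small differences were resolved for this gene: 11 of 15 neighbouring pairs in batches 1 to 3 passed.

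GSTO1, the omega-class enzyme that also reduces dehydroascorbate, was low in OVCAR-8, whose cultures had 6.61, 6.60 and 6.69. That was 1.58 below IGROV-1, the next line of batch 3 (limma, adjusted p = 1.89e-19), and DOV13B led that batch at 9.34. HeyC2 and A2780 bounded batch 1 at 9.56 and 7.67, DOV13 and CH1 batch 2 at 9.02 and 8.03, A2780cisR and TAYA batch 4 at 8.38 and 6.94, and SKOV-6 and JHOS-3 batch 5 at 7.57 and 5.32. GSTK1, the kappa-class enzyme of mitochondria and peroxisomes, was bounded by TYK-nu and HeyA8 in batch 1 (9.63 and 7.85), OVCA433 and CH1 in batch 2 (9.06 and 7.96) and DOV13B and C13 in batch 3 (9.45 and 8.07). Caov-2 at 8.50 and A2780cisR at 6.09 bounded it in batch 4, and RMG-II at 7.74 and Hey at 5.38 in batch 5. Of their 15 neighbouring pairs, GSTO1 separated 8 and GSTK1 10.

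MGST1, a membrane transferase of the endoplasmic reticulum and outer mitochondrial membrane, was low in 1 line of batch 1 and in 1 or more lines of each other batch. A2780 had MGST1 at 4.10, 4.21 and 4.02, which was 4.02 below HeyA8, the next line of batch 1 (limma, adjusted p = 7.71e-13). A2780cisR, in batch 4, had 7.18 beside a batch median of 7.20, but the 2 lines share no batch and their difference cannot be tested. DOV13, DOV13B and DOV13A were low in all of batches 2, 3 and 5, at 3.94, 4.08 and 4.09. C13 at 3.63, SKOV-4 at 3.32 and OVK-18 at 3.27 were lowest in batches 3, 4 and 5. OVCA420 at 10.06, OVCA433 at 8.59, OVCAR-8 at 9.65, Caov-2 at 8.29 and RMG-II at 8.42 led the 5 batches. A2008 had no settled level, with untreated cultures at 5.89, 3.43 and 6.83. Of 15 neighbouring pairs, 7 passed.

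GSR, the reductase, was highest in OVCA420, the line that also led GPX2. Its cultures had GSR at 13.11, 12.96 and 12.97, which was 1.82 above TYK-nu (limma, adjusted p = 3.50e-37), and HeyC2 was lowest in batch 1 at 9.65. A2008 and DOV13 bounded batch 2 at 11.12 and 10.06, and the A2008 cultures had 10.95, 11.34 and 11.07, the first being the one that leans to FU-OV-1. In batch 3, OVCAR-8, C13 and IGROV-1 lay within 0.09 of each other and did not differ past the threshold, while DOV13B was lowest at 9.95. OAW42 and JHOS-2 bounded batch 4 at 11.09 and 9.31, and RMG-II and M41 batch 5 at 10.76 and 8.56. Of 15 neighbouring pairs, 9 passed.

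**Figure D1:**
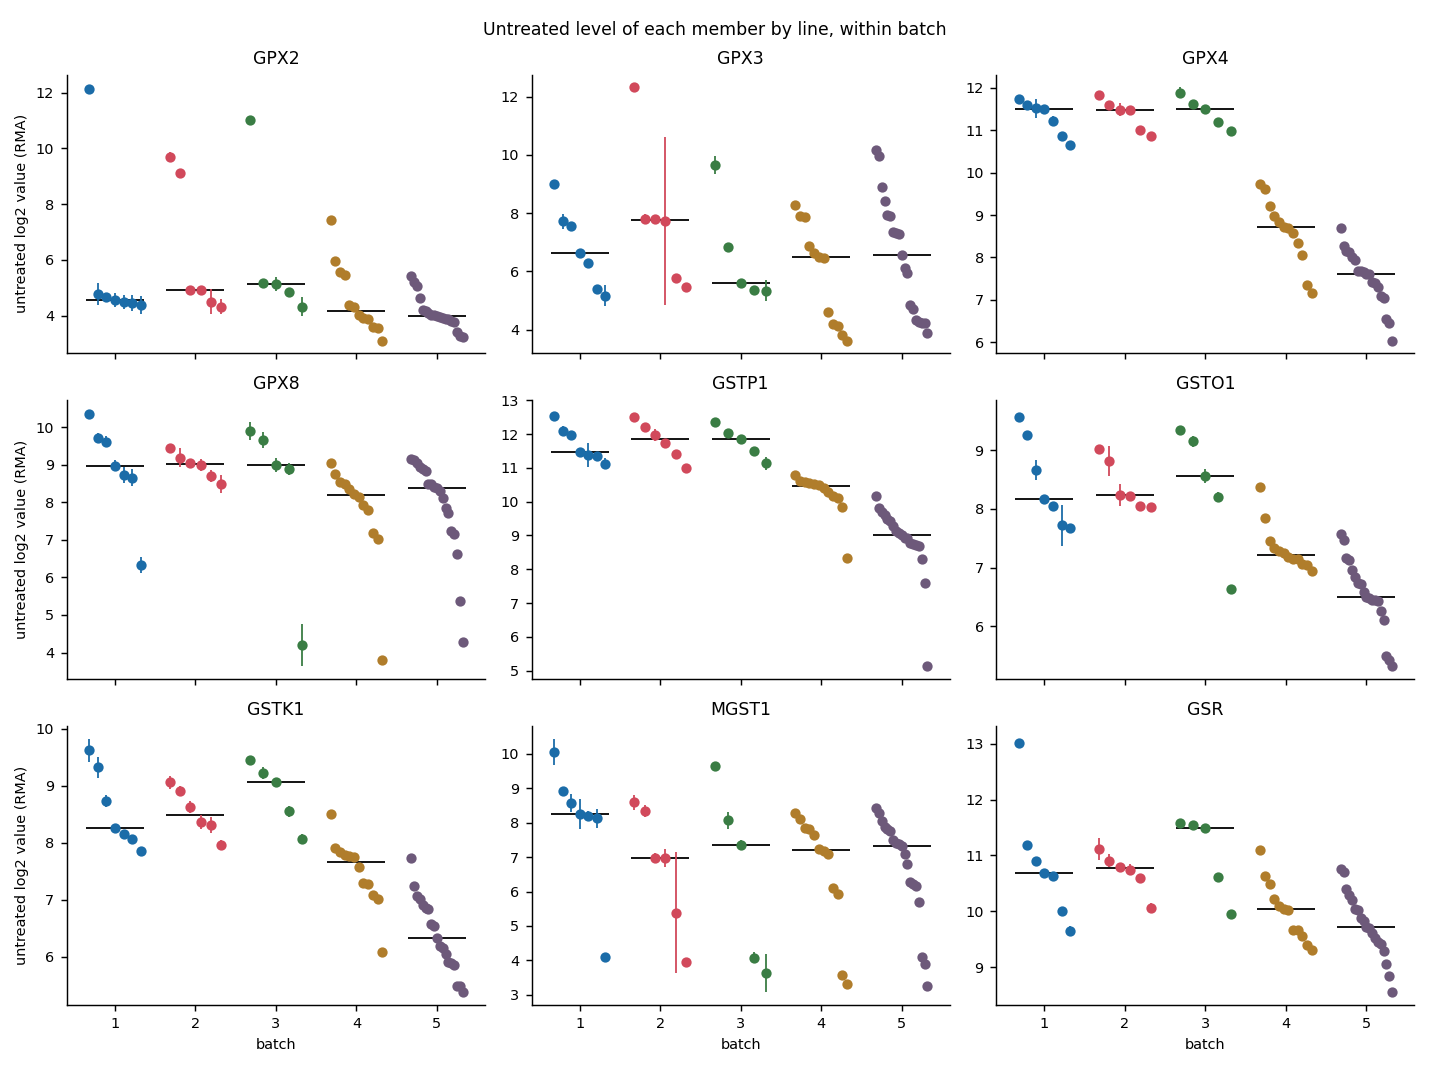
Untreated level of the 9 enzymes by line, 1 panel per gene, with log2 intensity on the y axis and the 5 batches along the x axis. Points are line means with their SD where a line had 3 cultures, and horizontal bars are batch medians. OVCA420 stands alone in the GPX2 panel of batch 1 at 12.13, and OVCAR-8 stands alone at the bottom of the GPX8 panel of batch 3 at 4.19.

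Some members varied together over the lines, as correlations of batch-centred untreated levels over 46 lines show. These are descriptions, since lines of a batch share a scale and related lines share an origin. GPX2 and GSR had the highest correlation (Pearson 0.575, Spearman 0.452). Without OVCA420 and C13, the lines farthest out in GPX2, Pearson was 0.389. It was 0.640 over the 18 lines of batches 1 to 3 and 0.537 over the 28 lines of batches 4 and 5. GPX8 and GSTO1 gave Pearson 0.426 and Spearman 0.338, with 0.268 without OVCAR-8 and TAYA, 0.730 in the 18 lines and 0.186 in the 28. GSTP1 and GSTK1 gave 0.415 over all, but -0.06 in the 18 lines and 0.561 in the 28. GSTO1 and MGST1 ran against each other (-0.45 over all lines, -0.48 in the 18, -0.43 in the 28). Without the 6 lines with arrays that stand apart, the 4 correlations were 0.385, 0.408, 0.424 and -0.47 over 40 lines.

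**Figure D2:**
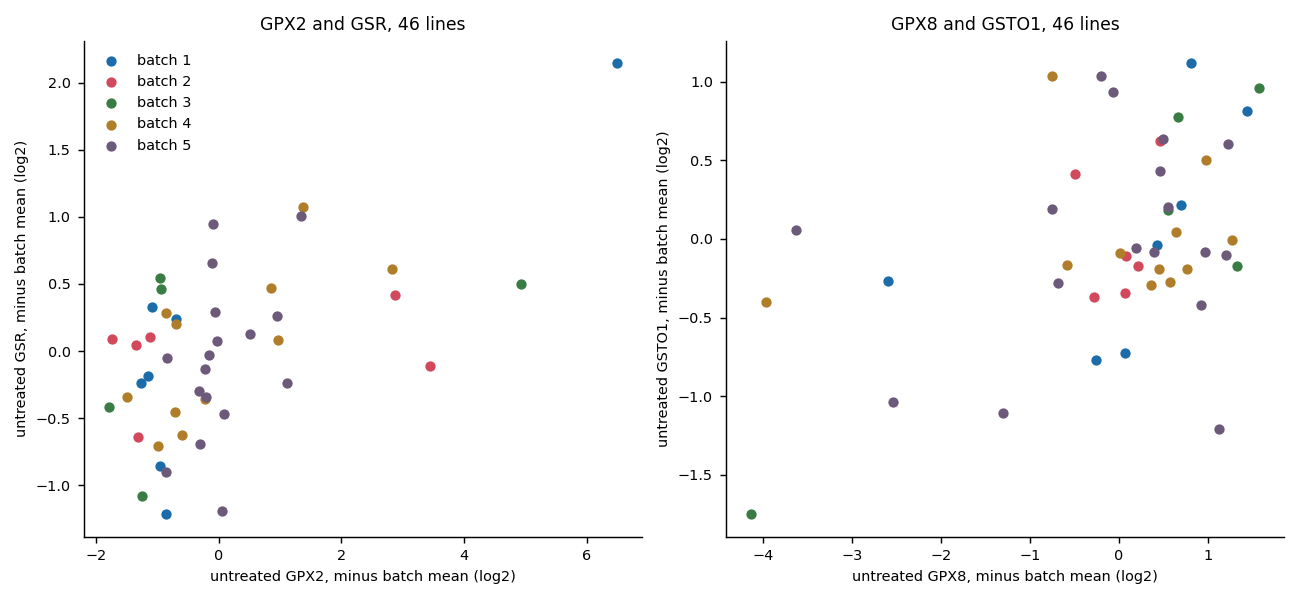
Batch-centred untreated log2 levels of GPX2 against GSR and of GPX8 against GSTO1, each point 1 of 46 lines and each axis 1 gene. OVCA420 lies at the top right of the GPX2 and GSR panel, and Pearson's r is 0.575 and 0.426 in the 2 panels.

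The genes whose untreated pattern was most like a member's were taken from the 9209 genes at or above the median level, 3 for each member. For GPX2 they were TSKU (r = 0.724), OSGIN1 (0.698) and FOXQ1 (0.676). These rested on batches 1 to 3: TSKU gave 0.813 in the 18 lines and 0.320 in the 28. For GPX3 they were PRKCI (0.753), CHMP1B (0.697) and RHPN2 (0.691), and PRKCI gave 0.768 and 0.748 in the same split. For GPX8 they were PPWD1 (0.678), SUPT20H (0.667) and CAVIN1 (0.607). For GPX4 they were BSG (0.666), EEF2 (0.652) and PMS2 (0.635), and for GSTP1 ANAPC15 (0.682), NOP9 (0.639) and NDUFV1 (0.614). For GSTO1 they were TBCA (0.691), MRPS27 (0.650) and AP1M1 (0.633), and for GSTK1 REPIN1 (0.721), CASP2 (0.697) and CYREN (0.659). For GSR they were ATP2A2 (0.638), UGDH (0.636) and ZNHIT3 (0.628), and for MGST1 PTPN11 (0.619), ZC3H3 (0.589) and TFRC (0.589).

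Of these 27 genes, 9 lay on the chromosome of their member, where 3.35% to 6.91% of the candidates do. BSG and EEF2 lie with GPX4 on chromosome 19, ANAPC15 and NDUFV1 with GSTP1 on 11, PPWD1 with GPX8 on 5, PTPN11 with MGST1 on 12, and REPIN1, CASP2 and CYREN with GSTK1 on 7. The 20 measured genes nearest to each member were then examined, a view chosen after this was seen. Their median correlation with the member was 0.404 for GSTK1, 0.335 for GSR, 0.298 for GSTP1 and 0.286 for GPX4. It was 0.187 for GPX8, 0.138 for MGST1, 0.067 for GSTO1, 0.045 for GPX3 and 0.041 for GPX2, where the median over all genes lay between -0.03 and 0.046. CASP2 was the neighbour most like GSTK1 and DCTN6 the one most like GSR (0.576).

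**Figure D3:**
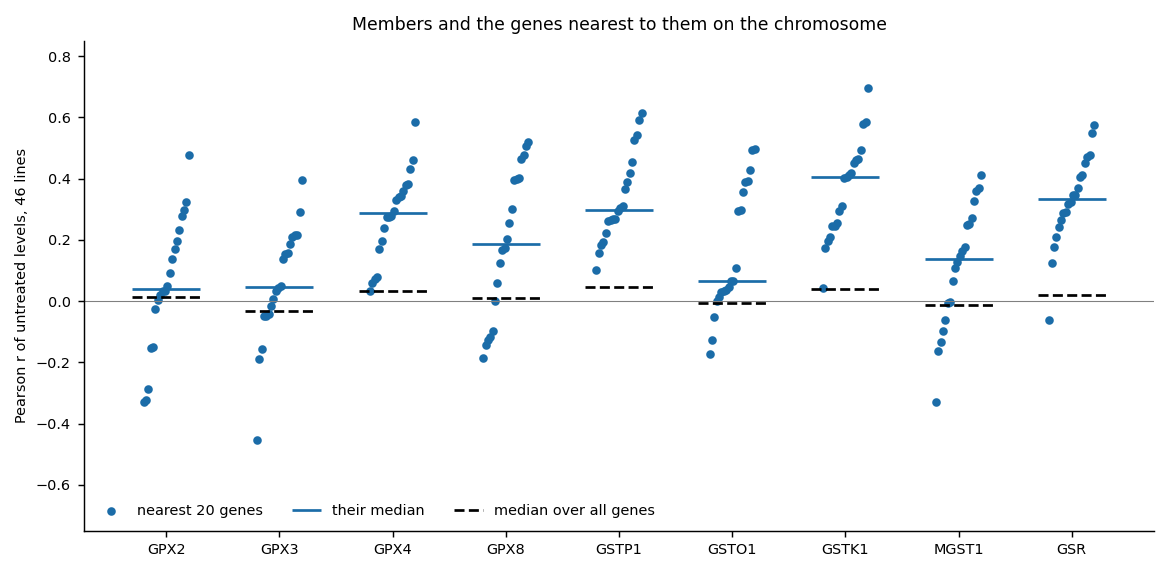
Correlation over 46 lines of each member's untreated level with its 20 nearest measured genes on the chromosome, with members along the x axis and Pearson's r on the y axis. Points are neighbours, the solid bar is their median and the dashed bar the median over all genes. The neighbours of GSTK1 centre on 0.404 and those of GPX2 on 0.041.

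Cisplatin lowered GSR over the 46 lines and moved none of the other 8 enzymes past the threshold. GSR fell by 0.186 ± 0.051 (SE, n = 46 lines), a level 0.879-fold that of the untreated arm, and was higher after cisplatin in 14 of 46 lines (limma, adjusted p = 0.0136). In all, 9.70% of genes passed, 4.98% higher and 4.72% lower, so 1 of 9 is near that share. By the limma F test over the 5 batches 0% of genes passed, and the members' unadjusted p-values were 0.343 or more. The batch means of GSR were -0.18, -0.13, -0.07, -0.27 and -0.19. Over batches 1 to 3 the mean was -0.13 ± 0.036 (adjusted p = 0.0289) and over batches 4 and 5 -0.22 ± 0.081 (limma, adjusted p = 0.111). Without Hey, OAW28 and OV56 it was -0.14 ± 0.038 (limma, adjusted p = 0.00972), and without the 3 cultures that lean to another line -0.18 (limma, adjusted p = 0.0136). Without batch 4 the adjusted p was 0.156. In batches 4 and 5 the GSR difference moved with the difference in array upper quartile (r = 0.666 over 28 lines), in batches 1 to 3 it did not do so in that direction (r = -0.11 over 18 lines), and the part of array scale in the result was not tested.

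Of the other members, GPX2 had the largest mean difference, 0.178 ± 0.088 (SE, n = 46; limma, p = 0.0472 before and 0.218 after adjustment), higher in 23 of 46 lines. GSTK1 averaged 0.058 ± 0.060 (adjusted p = 0.636), higher in 24 of 46. It was 0.168 ± 0.050 over the 18 lines of batches 1 to 3 (limma, adjusted p = 0.0417) and -0.01 ± 0.090 over the 28 of batches 4 and 5 (limma, adjusted p = 0.968). The difference between those sets was -0.18 ± 0.122 and did not pass (limma, adjusted p = 0.683), where 0.0814% of genes did. GPX3 averaged -0.07 ± 0.085, GPX4 -0.06 ± 0.065, GSTP1 -0.05 ± 0.062, MGST1 -0.03 ± 0.069, GSTO1 -0.02 ± 0.063 and GPX8 -0.0003 ± 0.113, all with limma adjusted p of 0.647 or more. None of these 8 passed without Hey, OAW28 and OV56, where the limma adjusted p was 0.294 for GPX2 and 0.420 or more for the others, or without the 3 leaning cultures, where it was 0.218 for GPX2 and 0.650 or more for the others.

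**Figure D4:**
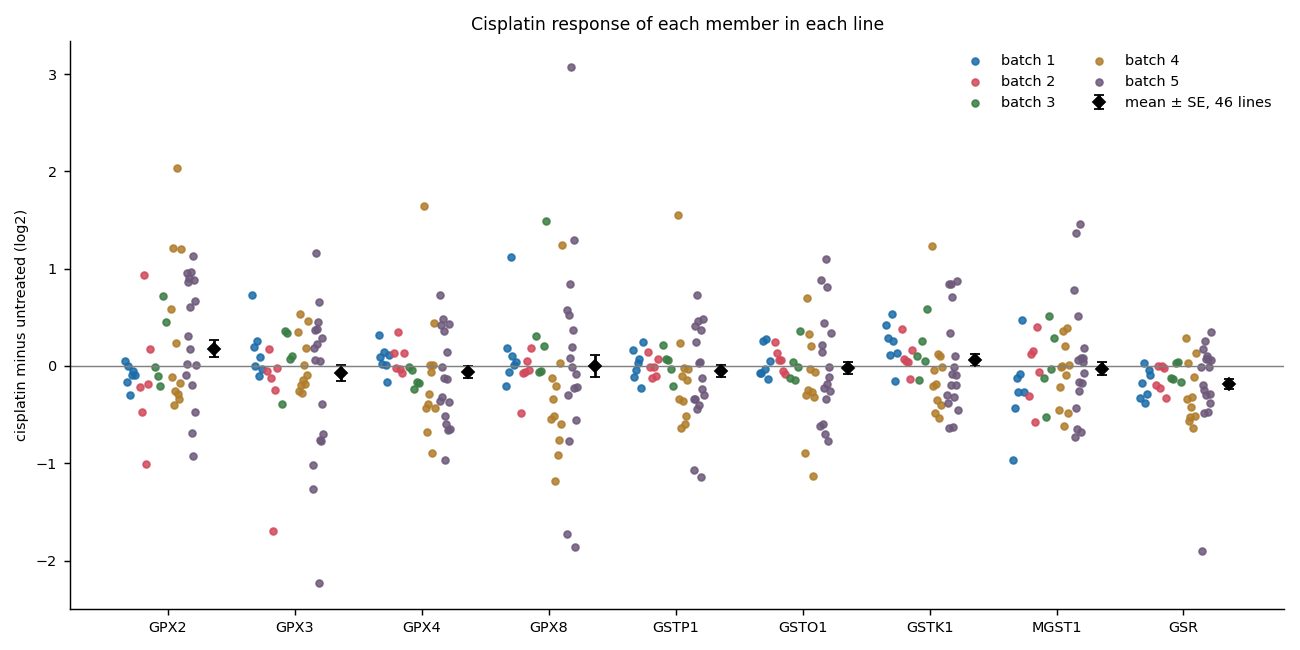
Cisplatin minus untreated log2 difference of each of 46 lines for the 9 enzymes along the x axis, with points coloured by batch and a diamond for the mean and its SE. The mean of GSR is -0.19, and single lines of GPX8 reach 3.08 and -1.86.

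Single lines moved by more than these means. Among the 18 replicated lines the response differed between lines for GPX8 (limma F test, adjusted p = 6.72e-09), GPX2 (5.78e-07), GSTK1 (5.97e-07), GSR (3.65e-04) and GPX4 (0.00644), which is 5 of 9 and near the share of all genes, 51.0%. GSTP1 (0.0662), GSTO1 (0.185), GPX3 (0.228) and MGST1 (0.798) did not pass. With only genes at or above the median level, 5 of 8 members passed, beside 79.8% of those genes. Without the 3 cultures that lean to another line, GPX3 passed as well (limma F test, adjusted p = 0.0133). Line by line, 20 of 162 tests passed, 13 higher and 7 lower, against 8.23% of all tests (4.55% higher and 3.68% lower). With only genes at or above the median level, 15.3% of all tests passed, beside 18 tests over 8 members and 18 lines. The counts of members are therefore not read as an excess. Leaving out the cultures numbered 2 left 10 such calls, beside 3.07% of all tests, and leaving out those numbered 3 left 10, beside 4.71%. The share of all genes that passed differed widely between lines, from 0.076% in TYK-nu to 27.8% in FU-OV-1. It was 22.8% in PA-1, 4.18% in OVCAR-10, 3.53% in A2780, 3.31% in DOV13, 2.92% in OV90 and 1.46% in DOV13B, lines in which no member passed.

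GSR fell in 5 lines, but in 1 without the cultures numbered 3 and in 0 against a minimum change of 1.2-fold. In OVCA420 the cisplatin-treated cultures had GSR at 12.66, 12.71 and 12.52, against 13.11, 12.96 and 12.97 untreated. Every treated culture lay below every untreated one, and the level fell by 0.38 ± 0.071 (SE; limma, adjusted p = 5.22e-05), or by 0.32 without treated culture 3. HeyA8 had 9.75 and 9.60 after cisplatin, against 10.01, 10.05 and 9.95 untreated (limma, adjusted p = 0.00147). OVCA429 had 10.38, 10.34 and 10.48 after cisplatin, against 10.73, 10.62 and 10.70 untreated (limma, adjusted p = 0.00770). FU-OV-1 and OVCA433 fell by 0.22 and 0.30 (limma, adjusted p = 0.0106 and 0.00547). Of all genes, 27.8% passed in FU-OV-1, 13.7% in HeyA8, 11.5% in OVCA420, 3.9% in OVCA429 and 2.68% in OVCA433. In the 18 lines, all treated cultures lay below all untreated ones in 9 and above them in 1, where 12.1% and 13.1% of gene and line pairs did so over all genes. The 1 line was IGROV-1, with 11.52, 11.55 and 11.55 after cisplatin, against 11.50, 11.51 and 11.48 untreated.

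GSTK1 rose in 6 of the 18 lines and fell in none, but in 4 with a replicate block, 2 without the cultures numbered 3 and 1 against a minimum change of 1.2-fold. OVCAR-8 had GSTK1 at 9.67, 9.56 and 9.71 after cisplatin, against 9.13, 9.07 and 8.98 untreated (0.59 ± 0.091; limma, adjusted p = 8.23e-07). OVCA420 had 8.65, 8.48 and 8.93 after cisplatin, against 8.16, 8.17 and 8.13 untreated, 1.45-fold (limma, adjusted p = 7.59e-06), and its treated culture 3, which leans to OVCA429, was the highest. Without that culture the difference was 0.41 (limma, adjusted p = 0.00206). HeyA8 had 8.24 and 8.31 after cisplatin, against 7.82, 7.89 and 7.84 untreated, 1.34-fold (limma, adjusted p = 0.00149). HeyC2, CH1 and C13 rose by 0.29, 0.38 and 0.26 (limma, adjusted p = 0.0402, 0.00715 and 0.0366). The arms did not overlap upwards in 8 lines and downwards in 1, DOV13B, whose treated cultures had 9.31, 9.30 and 9.31, against 9.42, 9.52 and 9.40 untreated. Over all genes, 13.1% of gene and line pairs did not overlap upwards and 12.1% downwards. Among the 6 lines in which GSTK1 rose, 13.4% of all genes passed in OVCAR-8, 11.5% in OVCA420, 13.7% in HeyA8, 5.13% in HeyC2 and 17.7% in C13, against 1.98% in CH1.

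GPX8 rose in the 2 replicated lines where its untreated level was lowest in the batch by a wide margin. OVCAR-8 had GPX8 at 5.68, 5.90 and 5.48 after cisplatin, against 4.79, 3.68 and 4.11 untreated (1.49 ± 0.17; limma, adjusted p = 1.01e-10). OVCA420 had 7.20, 7.11 and 8.02 after cisplatin, against 6.56, 6.17 and 6.24 untreated, 2.17-fold (1.12 ± 0.17; limma, adjusted p = 5.89e-07). The untreated level of OVCAR-8 lay near the bottom of the scale, where the probe set may read background, so no fold is given for it. In OVCA420, treated culture 3 was again the highest, and without it the difference was 0.83 (limma, adjusted p = 3.36e-04). No other replicated line passed. In CH1 the level was 8.34, 8.26 and 8.06 after cisplatin, against 8.52, 8.78 and 8.82 untreated (-0.48; limma, adjusted p = 0.158). The lowest untreated lines of batches 4 and 5 also read higher after cisplatin, with TAYA at 5.06 against 3.81 untreated and OVCA432 at 7.37 against 4.29 untreated, each on 1 array per arm and with no test. A low untreated value enters such a difference itself, so level and difference are not independent there.

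GPX2 moved in both directions. A2008 had GPX2 at 8.12, 8.0 and 8.21 after cisplatin, against 8.96, 9.22 and 9.18 untreated, a level 0.497-fold (limma, adjusted p = 1.24e-04), and the difference was -1.09 without its untreated culture 1. FU-OV-1 had 5.73, 6.08 and 5.69 after cisplatin, against 4.91, 5.04 and 4.76 untreated (0.93; limma, adjusted p = 2.72e-05). IGROV-1 had 5.73, 6.13 and 5.83 after cisplatin, against 5.13, 5.09 and 5.30 untreated (0.72; limma, adjusted p = 0.00610). The untreated levels of FU-OV-1 and IGROV-1 lay near the bottom of the scale, where the probe set may read background, so no fold is given for them. Of all genes, 27.8% passed in FU-OV-1, 6.96% in IGROV-1 and 5.15% in A2008. Over the 18 lines, all treated cultures lay above all untreated ones in 5 and below them in 4, where 13.1% and 12.1% of gene and line pairs did so over all genes. The 4 below were A2008, OVCA420, C13 and OV90, of which A2008 passed the test, and OV90 stood at 9.38, 9.23 and 9.05 after cisplatin, against 9.60, 9.59 and 9.90 untreated (limma, adjusted p = 0.189).

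GPX4 rose in FU-OV-1, with 12.14, 12.15 and 12.22 after cisplatin, against 11.87, 11.85 and 11.73 untreated (limma, adjusted p = 0.00275), and in HeyA8, with 11.06 and 11.30 after cisplatin, against 10.87, 10.75 and 10.96 untreated (limma, adjusted p = 0.0326). GSTO1 rose in OVCAR-8, its lowest line of batch 3, with 7.27, 6.76 and 6.94 after cisplatin, against 6.61, 6.60 and 6.69 untreated (limma, adjusted p = 0.0398). GPX3 passed downwards in A2008, with 6.39, 5.96 and 5.72 after cisplatin, against 11.04, 5.84 and 6.29 untreated (limma, adjusted p = 0.00479). That call rested on the untreated culture at 11.04, the one that leans to FU-OV-1, where GPX3 is near 12.3, and without the 3 leaning cultures the difference was -0.04 (limma, adjusted p = 0.952). Without them, GPX3 passed upwards in HeyA8, with 8.38 and 8.52 after cisplatin, against 7.86, 7.43 and 7.87 untreated (limma, adjusted p = 4.96e-04), and GPX4 passed downwards in C13 (-0.23; limma, adjusted p = 0.0339). GSTP1 and MGST1 passed in none of the 18 lines.

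**Figure D5:**
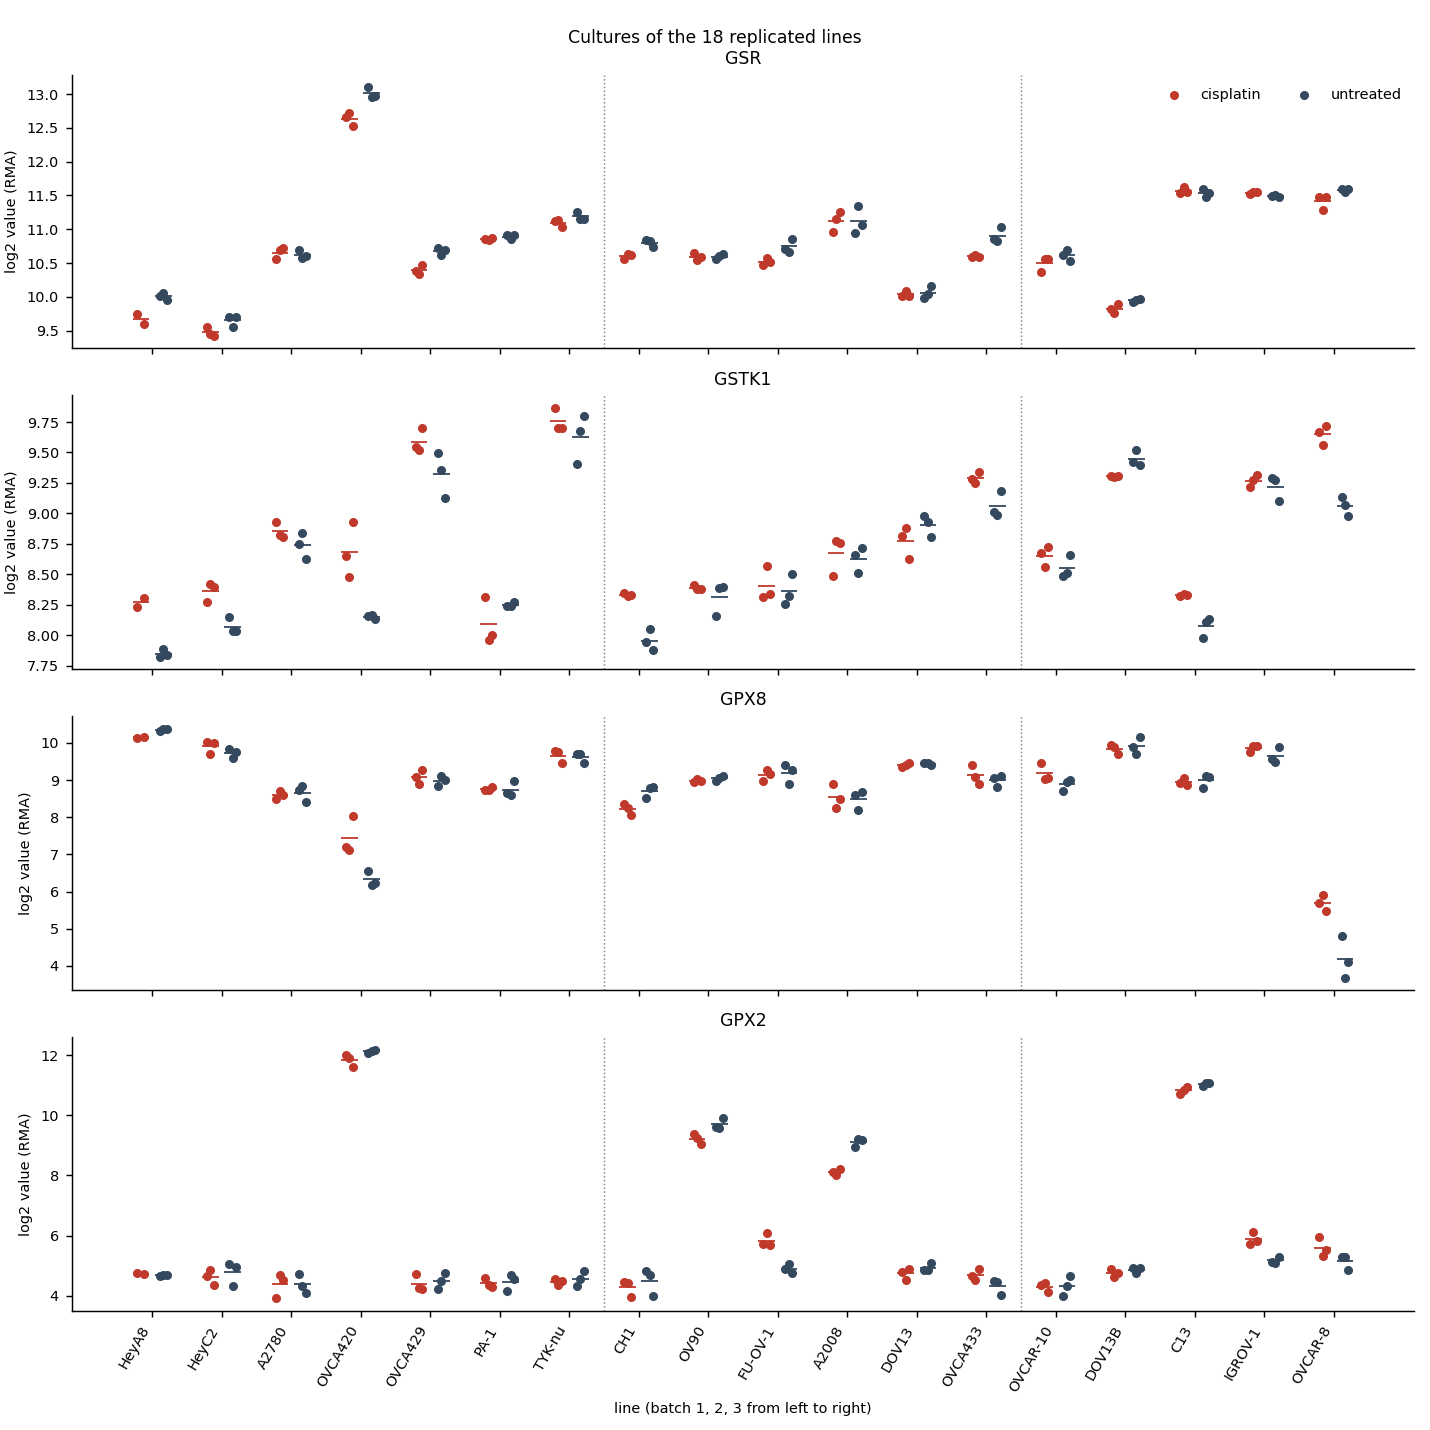
Log2 level of GSR, GSTK1, GPX8 and GPX2 in each culture of the 18 replicated lines, cisplatin-treated in red on the left of each pair and untreated in dark on the right, with bars for the means. GSTK1 of OVCAR-8 is at 9.56 to 9.71 after cisplatin, against 8.98 to 9.13 untreated, and GPX8 of OVCAR-8 is at 5.48 to 5.90, against 3.68 to 4.79.

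The extremes over all 46 lines lay mostly among lines with 1 culture per arm. GPX8 differed most: 3.08 in OVCA432 and 1.49 in OVCAR-8 at the top, -1.73 in Hey and -1.86 in SKOV-8 at the bottom. GPX2 reached 2.03 in OVCAR-2 (7.59 after cisplatin, against 5.56 untreated) and 1.22 in Caov-2, with -0.92 in SKOV-6 and -1.01 in A2008. GPX3 ran from 1.16 in OV56 and 0.73 in HeyA8 to -1.70 in A2008 and -2.23 in RMG-I, its highest untreated line of batch 5 (7.93 after cisplatin, against 10.16 untreated). GPX4 ran from 1.65 in A2780cisR and 0.72 in Hey to -0.90 in PEO1 and -0.97 in OVK-18.

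A2780cisR and Hey recurred at the ends. In A2780cisR, GSTP1 was at 9.90 after cisplatin, against 8.34 untreated, GSTK1 at 7.32 against 6.09 untreated, and GSTO1 at 7.49 against 8.38 untreated. GSTP1 ran from 1.55 in that line and 0.73 in OV56 to -1.07 in Hey and -1.14 in SKOV-6, and GSTK1 from 1.23 in A2780cisR and 0.88 in TOV-21G to -0.63 in OVK-18 and -0.64 in OAW28. GSTO1 ran from 1.10 in OVK-18 and 0.89 in Hey to -0.89 in A2780cisR and -1.14 in SKOV-4. GSR ran from 0.35 in TOV-21G and 0.28 in A2780cisR to -0.64 in PEO1 and -1.90 in Hey (7.38 after cisplatin, against 9.28 untreated). MGST1 ran from 1.46 in OVK-18 and 1.36 in OAW28 to -0.73 in Hey and -0.96 in HeyA8. The array upper quartile itself differed by 0.214 in A2780cisR, -0.46 in Hey and -0.24 in OVK-18. These differences have no replicate.

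OVCA433, grown in both batch 2 and batch 4, allowed the response to be set beside itself. GSR differed by -0.30 in batch 2 and by -0.40 in the single cultures of batch 4. GSTK1 differed by 0.23 and -0.05, GPX4 by -0.02 and 0.61, and GPX2 by 0.37 and -0.43.

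Responses of some members also ran together over the lines. GSTP1 and GSTK1 gave Pearson 0.725 and Spearman 0.640 over 46 lines, which was 0.770 in the 28 lines of batches 4 and 5 and 0.136 in the 18 replicated lines. GPX4 and GSTK1 gave 0.690 over all, 0.720 in the 28 and 0.327 in the 18. GPX4 and MGST1 ran against each other in both sets (-0.45 and -0.58). Without the 6 lines with arrays that stand apart, these 3 correlations were 0.709, 0.780 and -0.48 over 40 lines. In the 28 lines, the difference in upper quartile itself moved with the responses of GSTP1 (r = 0.581), GSTK1 (0.583) and GSTO1 (-0.53), and the part of array scale in these correlations was not tested. The genes with the response most like a member's were likewise stronger in the single cultures for several members: STT3B gave 0.770 with GPX8 over all lines but 0.055 in the 18, and DHPS gave 0.850 with GSTK1 but 0.268 in the 18. GPR108 with GPX4 (0.819) and EIF3K with GSTP1 (0.840) held 0.839 and 0.80 in the 18 lines. The most alike of the remaining members were SKP2 with GSR (0.852), PSMB1 with GSTO1 (0.818), VDAC2 with MGST1 (0.732), ATPAF2 with GPX2 (0.676) and PHYH with GPX3 (0.673). In the 18 lines these gave 0.608, 0.339, 0.657, 0.703 and 0.269. For GSR, the median over all candidate genes was already 0.330 over the 46 lines.

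Over the 46 lines, 4.98% of all genes passed higher and 4.72% lower, the shares to set beside the counts that follow. Around the 9 enzymes, some genes that supply NADPH for GSR also fell. Of 7 measured, 4 fell and none rose, with a median of -0.21 beside -0.01 over all genes: IDH1, the cytosolic isocitrate dehydrogenase (-0.32; limma, adjusted p = 0.00731), the pentose phosphate enzymes TALDO1 (-0.30; 0.00149) and TKT (-0.25; 0.0315), and malic enzyme ME1 (-0.21; 0.0185). Glutathione synthesis and turnover had none of 13 past the threshold, its cystine transporter SLC7A11 at -0.25 (limma, adjusted p = 0.288) and its partner SLC3A2 at 0.18 (0.218). Of 22 other peroxidases and transferases, MGST3 alone passed (-0.17; limma, adjusted p = 0.0275). A list of 7 genes held glutaredoxins, glyoxalases and the esterase ESD. Of these, ESD and the glutaredoxin GLRX3 fell (-0.19 and -0.15; limma, adjusted p = 0.0118 and 0.0100).

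In the parallel thiol system, of 11 thioredoxins and peroxiredoxins, the reductase TXNRD1 fell (-0.14; limma, adjusted p = 0.0279) and TXNIP, an inhibitor of thioredoxin, rose (0.64; 1.52e-04). Of 8 other antioxidant enzymes, NQO1 and catalase, CAT, fell (-0.28 and -0.21; limma, adjusted p = 5.73e-04 and 0.0149), and mitochondrial SOD2 rose (0.15; 0.0419). Of 6 measured pumps and carriers of conjugates, ABCC4 fell (-0.29; limma, adjusted p = 0.00684). None of 7 genes of NRF2 and its regulators passed, MAFG at 0.22 (limma, adjusted p = 0.0686) and SQSTM1 at 0.13 (0.225) being the largest. Of 8 selenoprotein synthesis genes, SECISBP2 fell (-0.22; limma, adjusted p = 0.0107). None of 10 phospholipid peroxidation and ferroptosis genes passed, with TFRC at -0.21 (limma, adjusted p = 0.0739) and LPCAT3 at -0.14 (0.424). Outside the NADPH list, the medians of the lists lay between -0.09 and 0.07. The lists are short beside the shares of all genes that passed, 4.98% higher and 4.72% lower, and none was tested as a set.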

How the data were processed

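Total RNA of ovarian cancer cell lines was hybridised to Affymetrix arrays. The deposited values are log2 intensities, summarised by the authors with RMA, per the submitters' processing notes, and how arrays were grouped for RMA is not given in the sources used here. All 171 arrays were used, with 33297 probe sets each, and 4 repeat arrays were averaged into their culture, which left 167. Of the probe sets, 19460 had 1 gene symbol, 1754 several and 12083 none, and 19429 were matched to current symbols by gene identifier. Where a gene had several, the probe set with the brightest average was kept, which left 18417 genes.

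Cisplatin minus untreated was taken within line and batch and tested against 0 over 46 lines with limma 3.58.1 in R 4.3.3. It used 165 cultures, since 2 untreated cultures had no treated partner in their batch. OVCA433 combined its 2 batches into 1 difference, which was counted with batch 2 wherever these differences were split by batch. A model with a mean per line and arm was fitted to the 107 cultures of batches 1 to 3 (71 residual degrees of freedom) for tests within lines and between untreated lines. Adjusted p-values are Benjamini-Hochberg over all genes, with a threshold of 0.05. For pairs of untreated lines the adjustment ran over genes and pairs together. The fits were tested on simulated data. The number of arrays limits the precision: cultures of a group differed by a median of 0.144.

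All 9 members are named, with the highest and lowest untreated line of each batch and the 2 highest and 2 lowest differences. Of each pathway list, up to 4 genes past the threshold are named, or the 2 largest where none passed. The genes most like a member are the 3 with the highest Pearson correlation of batch-centred values. Members and lists were chosen with earlier results of these data known. Alternatives covered scaling, the lines and cultures used, filters, probe sets and a minimum change. Promoter windows came from RefSeq on GRCh38.p14. GSR is not among the promoters shown.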

Additional observations from a re-analysis of the deposited data

Results flagged for a closer look

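For 5 of the 9 enzymes, lines with replicate cultures responded unequally to cisplatin by the limma F test, with adjusted p = 6.72e-09 for GPX8, 5.78e-07 for GPX2, 5.97e-07 for GSTK1, 3.65e-04 for GSR and 0.00644 for GPX4, which is near the 51.0% of all genes that passed. Among genes at or above the median level, 79.8% passed.

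A line stood far from the other lines of its batch, by the gap to its nearest neighbour, in 4 of 27 combinations of gene and batch. The limit used is one that about 1 in 20 sets of normally spread values would pass. The share over all genes was not measured, so the count cannot be read as an excess. GPX3 of A2008 differed by -1.70 in batch 2, and that value rested on 1 untreated culture. GPX8 of OVCA420 differed by 1.12 in batch 1, and by 0.83 without the treated culture that leans to OVCA429. GPX8 of OVCAR-8 differed by 1.49 in batch 3. GPX8 of CH1 differed by -0.48 in batch 2 and did not pass within the line (limma, adjusted p = 0.158).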

How the results depend on the processing

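No member's mean change over the lines that passed the threshold reversed under the alternatives run. For calls within single lines and between untreated lines, the alternatives gave counts, and directions were not compared call by call. Over the lines, GSR kept its direction in 73 settings and its call in 65 of them. Of the 73, 46 left out 1 line each, and all of these kept the call (-0.20 to -0.15, limma adjusted p from 0.00496 to 0.0230). The 8 settings that lost the call were all among the others, which differed more from the reported analysis. The number of members past the threshold was 1 in the reported analysis and 2 with batches 1 to 3 only, where GSTK1 was added. It was 0 with batches 4 and 5 only, 0 without batch 4, 0 with each of the 5 batches alone (fewer lines) and 0 against a minimum change of 1.2-fold. Over all genes, 1787 passed, against 627 without batch 4, 987 with batches 4 and 5 only, 6 against the 1.2-fold minimum, and 2, 2, 6, 770 and 16 with batches 1 to 5 alone. Among the replicated lines, leaving out each replicate number in turn gave 3 to 7 members with a response that differed between lines, against 5, and 10 to 18 calls within lines, against 20. Over all genes the F test passed 20.1% to 45.5%, against 51.0%, and the tests within lines 3.07% to 7.26%, against 8.23%. Without the cultures numbered 3, GSTK1 rose in 2 lines and GSR fell in 1, against 6 and 5. A minimum change of 1.2-fold left 5 calls within lines, beside 1.44% of all tests. Without the 3 cultures that lean to another line, an alternative chosen after seeing the data, these counts were 1 over the lines, 6 for the F test and 21 within lines, and 319 against 313 pairs of untreated lines differed. The replicate block gave 5 members by the F test and 16 calls within lines, with GSTK1 in 4 lines and GSR in 5. The numbers only name the cultures: of 53 same-numbered pairs, 7 deviated together with r over 0.1 (median -0.03). Only GPX2 fell below the median level, so 8 members were tested under that filter. It gave 5 members by the F test, beside 79.8% of genes, and 18 calls within lines, beside 15.3% of tests. Batches 4 and 5 have 1 culture per arm, so responses of their lines have no replicate.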
